A study of Homo sapiens with 96 samples.

Results

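Isolated annotated intronic sites are A-to-I editing positions of K562 cells that lie in introns, are known from public databases of editing sites, and stand alone in the deposited list. The members were taken as the entries of the list with the element Intron and the class Annotated that had no other listed site of either class within 100 bases on the same chromosome and strand. The rule kept 641 of the 2209 annotated intronic sites and of the 4149 sites listed in all. The other 1568 annotated intronic sites had a listed neighbour within 100 bases and are called clustered here.

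K562 is a human erythroleukemic line from chronic myeloid leukemia that carries the BCR-ABL1 fusion. The levels came from 96 rRNA-depleted, strand-specific RNA-seq samples in 93 conditions, of which 3 conditions had 2 samples. The time course held imatinib (inhibitor of the ABL1 kinase), etoposide (topoisomerase II poison), romidepsin (histone deacetylase inhibitor) and the solvent DMSO at 6, 12, 24, 36 and 48 h, with 1 sample each. In the actinomycin D chase, cells had 6 h of DMSO, talazoparib, SN-38, etoposide or cyclophosphamide and then 0 to 6 h of actinomycin D, which blocks transcription. Only DMSO and etoposide had samples at 1 h and 4 h, so the first treatments are not balanced over time. The alpha-amanitin samples had 6 h of DMSO or etoposide and then 0 to 6 h of this RNA polymerase II inhibitor, or 2 or 6 h of it alone, beside DMSO for 2 h. The kinase inhibitor samples had 3 h of AZ-20, KU-60019 and NU7441 together (inhibitors of ATR, ATM and DNA-PK) or of DMSO, and then talazoparib for 3 h or SN-38, etoposide or mirin for 6 h, beside DMSO followed by DMSO. The wash-out samples had 6 h of DMSO, SN-38 or etoposide and 0, 2 or 6 h after removal. The 16 samples of derivative lines carried lentiviral constructs labelled as overexpression (AsiSI, Cas9, LINE) or shRNA knockdown (CSB, LIG3, MRE11A) and had doxycycline or water for 2 to 13 days. Samples of rapamycin, Torin1, romidepsin for 3 or 6 h, actinomycin D alone and untreated cells completed the set.

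ADAR enzymes deaminate adenosine to inosine in double-stranded RNA, and reverse transcription reads inosine as G. Introns are the main place where such duplexes form, usually between inverted copies of a repeat, and many adenosines of one duplex are then edited side by side. The authors had removed sites in annotated repeats, so that isolation here refers to the list and not to the RNA itself.

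The sequences below are those of 5 of the members found most often and of the 3 members called in the site tests. Each runs 5′ to 3′ on the transcribed strand with 20 bases on either side of the edited adenosine, which is in capitals. The coordinates are those of GRCh38.

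LUC7L, chr16:213040-213080, minus strand: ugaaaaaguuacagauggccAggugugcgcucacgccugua

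CALU, chr7:128741523-128741563, plus strand: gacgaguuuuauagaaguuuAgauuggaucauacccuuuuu

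ABL1, chr9:130752317-130752357, plus strand: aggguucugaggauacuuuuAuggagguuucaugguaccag

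SLF1, chr5:94677426-94677466, plus strand: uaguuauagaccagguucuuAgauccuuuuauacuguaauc

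PAQR3, chr4:78936359-78936399, minus strand: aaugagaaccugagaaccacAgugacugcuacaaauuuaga

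ADAT2, chr6:143450014-143450054, minus strand: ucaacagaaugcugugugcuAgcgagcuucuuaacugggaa

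PSMA2, chr7:42925536-42925576, minus strand: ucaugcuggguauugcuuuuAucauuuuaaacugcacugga

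ARL6IP6, chr2:152745342-152745382, plus strand: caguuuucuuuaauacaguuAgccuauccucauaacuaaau

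Of these 8 members, 5 had an inverted match, a stretch of the same transcript within 2000 bases that could pair with the bases around the site over at least 40 aligned bases with at least 80% identity. The stretches that face the printed windows are given for 4 of them, with the base opposite the edited adenosine in capitals.

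PAQR3, facing stretch, chr4:78936456-78936493: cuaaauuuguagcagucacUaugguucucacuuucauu

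ADAT2, facing stretch, chr6:143449674-143449699: aucccaguuaagaagcucgcUagcac

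PSMA2, facing stretch, chr7:42926191-42926221: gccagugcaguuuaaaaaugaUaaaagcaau

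ARL6IP6, facing stretch, chr2:152743707-152743749: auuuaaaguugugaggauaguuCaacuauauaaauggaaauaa

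The edited adenosine faced C in ARL6IP6 and U in PAQR3, ADAT2 and PSMA2. In PAQR3, 35 of 38 aligned bases of the window were complementary, and the 2 arms were 20 bases apart, the shortest distance among the 5. In ADAT2, 25 of 26 aligned bases were complementary, with a distance of 263 bases. ABL1, CALU and SLF1 had no match that met both limits.

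All 641 members had A in the reference on the listed strand and lay in an intron of a protein-coding gene of GENCODE release 44. Of them, 16 (2.50%; Wilson 95% interval 1.54 to 4.02) also lay in an exon of another transcript on the same strand. The introns were long, with a median of 12460 bases (quartiles 4990 and 37264), and the nearest splice site was a median of 2803 bases away (quartiles 967 and 8629, lowest 33). First introns held 30.9% of members (27.4 to 34.6) and 31.2% of clustered sites (29.0 to 33.6).

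Most members stood far from any other listed site. The nearest one lay a median of 102323 bases away (quartiles 1524 and 1002740), and 39 members (6.08%; 4.48 to 8.21) had it within 200 bases. The smallest distance, 101 bases, was shared by both members in ABL1 and by the member in SENP6 (a SUMO protease), and the largest were 15218902 bases for CCDC91, 14214686 for OSTF1 and 12777000 for DENND4C. For 127 members the nearest listed site was another member with the same host gene, and for 105 it was a clustered site with the same host gene. The 13 annotated intronic sites just inside the limit (101 to 110 bases) had a median number of samples of 3.00 and a median level of 0.376, and the 11 just outside (91 to 100 bases) had 3.00 and 0.50.

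The editing level is the fraction of reads that carried G, averaged by the authors over the tools that called the site in that sample. Members had a level above 0 in 2744 of 61536 pairs of member and sample (4.46%). They were found, that is, had a level above 0, in a median of 2.00 samples (quartiles 2.00 and 4.00), and 20 members had none in the 96 samples. Of the 641, 105 were found in 1 sample, 201 in 2, 155 in at least 5, 59 in at least 10 and 21 in at least 20. The list gives no read depth per site, so a missing level can be an unedited site or one that was covered too thinly.

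Samples of one condition had few members in common. DMSO for 2 h gave 21 members in replicate 1 and 24 in replicate 2, of which 7 were shared (33.3% and 29.2%), and their levels differed by a median of 0.0636 in absolute value. DMSO for 6 h gave 7 and 12 members, of which 2 were shared (28.6% and 16.7%). Clustered sites shared 33 in the pair at 2 h (24.4% and 36.7%) and 17 in the pair at 6 h (14.5% and 24.3%). The samples labelled romidepsin for 6 h gave 22 and 12 members, of which 0 were shared, while clustered sites shared 9. The latter of these samples belongs to the time course, where the names of romidepsin and etoposide conflict between sources, so that this pair may not be 1 condition. The labels do not say whether samples of a condition came from separate cultures, and the replicates of these 3 conditions belonged to different experiments, so the p-values below measure the spread between these samples.

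LUC7L, a U1 snRNP-associated splicing factor, held the member found in the most samples, 67 of 96. This member lies in intron 3 of 9 at chromosome 16, position 213060, and its level was lowest at 0.240, had a median of 0.619 and was highest at 0.95. Its median was 0.800 over 17 samples of the time course, 0.669 over 10 kinase inhibitor samples and 0.577 over 12 samples of the chase, and the untreated sample, whose column carries no replicate number, had 0.240.

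The next 11 members by number of samples were found in 27 to 35. NSMAF (a sphingomyelinase activation factor; chromosome 8, position 58658582) had levels of 0.230 to 0.907 with a median of 0.455 over 35 samples. CALU (calumenin, a calcium-binding protein of the secretory pathway) had 0.10 to 0.810 with a median of 0.334 over 34. SLF1 (SMC5-SMC6 localization factor) had the widest range, 0.0833 to 1.00, with a median of 0.60 over 30, and PAQR3, a Golgi protein, had 0.227 to 1.00 with a median of 0.667 over 29. The ranges of all 12 members overlapped.

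PDE8A (a cAMP phosphodiesterase), NUP98 (a nucleoporin), RDH13 (a retinol dehydrogenase), C1orf52 and NACA (a subunit of the nascent polypeptide-associated complex, here with an overlapping gene) were each found in 27 samples. Their median levels were 0.429, 0.341, 0.250, 0.237 and 0.167, in this order. C1orf52 had a median of 0.402 over 15 time course samples and 0.0950 over 6 kinase inhibitor samples, and PDE8A had 0.677 over 10 and 0.275 over 8.

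**Figure D1:**
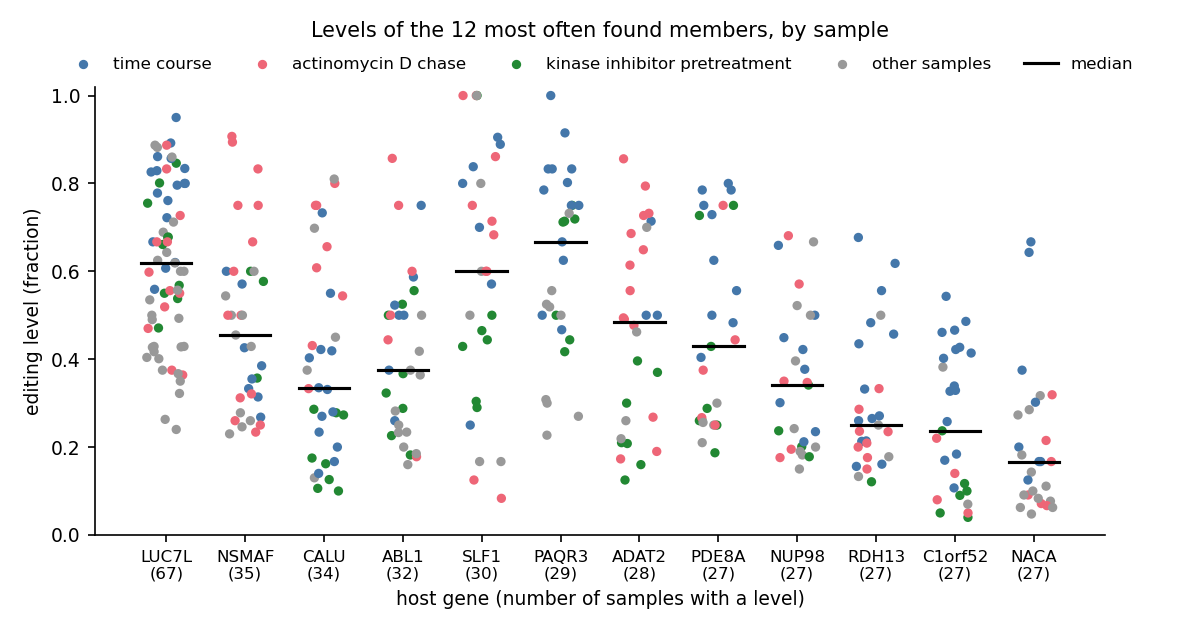
Editing level (fraction, y axis) of the 12 members found in the most samples, 1 point per sample with a level, coloured by experiment, with the median as a bar and the number of samples in parentheses. Medians run from 0.667 in PAQR3 to 0.167 in NACA, and within each member the samples spread over much of the scale.

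Among the 59 members found in at least 10 samples, the highest median levels were those of LTO1 (0.750 over 15 samples), ST6GAL1 (0.690 over 10), PAQR3 (0.667 over 29), ERCC6 (0.667 over 15) and ZZZ3 (0.667 over 11). The lowest were those of DNM2 (0.115 over 10), TFRC (0.124 over 14), MBD3 (0.138 over 24), CDC45 (0.146 over 12) and C21orf58 (0.150 over 21). ERCC6 encodes the CSB protein of transcription-coupled repair, and its member had an inverted match of 100 aligned bases with 99.0% identity at 1058 bases. TFRC encodes the transferrin receptor of erythroid cells, and none of its 14 levels exceeded 0.245. LTO1 was not found in the time course, and 9 of its 15 samples were kinase inhibitor samples (median 0.683).

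Levels near 0.5 were common. The median level over all 621 members with a level was 0.50 (quartiles 0.331 and 0.550), and 156 of them (25.1%; 21.9 to 28.7) had a median level within 0.001 of 0.5. The list does not give the reads behind these levels. Clustered sites had a median of 0.357 (quartiles 0.225 and 0.50), and 17.3% (15.5 to 19.3) lay within 0.001 of 0.5. The 105 members found in 1 sample had a median level of 0.50 and the 59 found in at least 10 had 0.429, with 0.50 and 0.392 for clustered sites.

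The detection tool differed between members and clustered sites. Each site was called by REDItools, RED-ML or SPRINT, or by a combination of them, and sites called by REDItools alone were not among the annotated intronic sites. RED-ML alone called 300 members (46.8%; 43.0 to 50.7) against 269 clustered sites (17.2%; 15.4 to 19.1). SPRINT called 128 members (20%; 17.1 to 23.2), 67.5% of clustered sites (65.2 to 69.8) and 15.7% of isolated unannotated intronic sites (12.5 to 19.5). SPRINT searches for runs of the same substitution, so its use is tied to the spacing by which the members were chosen. All 3 tools called 58 members (9.05%; 7.06 to 11.5) and 512 clustered sites (32.7%; 30.4 to 35.0).

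Members called by more tools were found in more samples and at lower levels. The authors credited a site with each tool that called it in any sample. The number of tools is therefore tied to the number of samples. The 312 members with 1 tool had a median of 2.00 samples and a median level of 0.50, the 271 with 2 tools had 4.00 samples and 0.375, and the 58 with 3 tools had 7 samples and 0.250. Clustered sites had the same order, with 0.50, 0.357 and 0.292.

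The bases beside the edited adenosine were those that ADAR enzymes are known to prefer, U on the 5′ side and G on the 3′ side with G rare on the 5′ side. U stood 5′ of 382 members (59.6%; 55.7 to 63.3), of 47.6% of clustered sites (45.2 to 50.1) and of 44.9% of isolated unannotated intronic sites (40.2 to 49.7). For 29213 other adenosines 20 to 100 bases from a member the share was 23.0% (22.5 to 23.5). G stood 5′ of 10 members (1.56%; 0.850 to 2.85), of 3.06% of clustered sites (2.32 to 4.04), of 10.5% of isolated unannotated ones (7.88 to 13.7) and of 21.6% of the other adenosines (21.1 to 22.1). G stood 3′ of 354 members (55.2%; 51.4 to 59.0), of 38.2% of clustered sites (35.8 to 40.6), of 51.1% of isolated unannotated intronic sites (46.3 to 55.8), of 79.6% of the 49 isolated annotated 3′ UTR sites (66.4 to 88.5) and of 26.3% of the other adenosines (25.8 to 26.8). The interval of members overlapped that of isolated unannotated sites. Both U before and G after occurred in 184 members (28.7%; 25.3 to 32.3), as in CALU, SLF1, ADAT2 and ARL6IP6 above, against 14.2% of clustered sites (12.6 to 16), 20.2% of isolated unannotated ones (16.6 to 24.3) and 5.04% of the other adenosines (4.79 to 5.30). Of the 49 isolated annotated 3′ UTR sites, 63.3% had a 5′ U (49.3 to 75.3) and 2.04% a 5′ G (0.361 to 10.7). Both U before and G after occurred in 49.0% of them (35.6 to 62.5), an interval above that of members. RED-ML called 97.3% of members, alone or with another tool, and whether the calling tools favour these bases was not tested. All intervals on shares are Wilson 95% intervals for counting error only, and sites of one gene or duplex are not independent.

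An inverted match over the site was found for 319 members (49.8%; 45.9 to 53.6), for 78.1% of clustered sites (75.9 to 80), for 25.7% of isolated unannotated intronic sites (21.7 to 30.0) and for 8.16% of isolated annotated 3′ UTR sites (3.22 to 19.2). In 22 of the 319 the match overlapped the window itself. The median distance to the match was 708 bases (quartiles 362 and 1083). Members with a match had a median level of 0.50 (quartiles 0.430 and 0.60) and those without it 0.402 (quartiles 0.252 and 0.50), while for clustered sites the medians were 0.350 and 0.375. Isolated unannotated intronic sites had the same order as members, with medians of 0.50 and 0.372. A 5′ U stood at 61.1% of members with a match (55.7 to 66.3) and at 58.1% of those without (52.6 to 63.3), with overlapping intervals. In a fold of 401 bases around the site, 43.8% of members were paired (40 to 47.7), against 50.8% of the other adenosines (50.3 to 51.4), and in clustered sites 49.9% were (47.5 to 52.4). Most inverted matches of members lay outside this window, since the first quartile of their distance was 362 bases. The fold therefore does not show whether members pair with such matches.

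**Figure D2:**
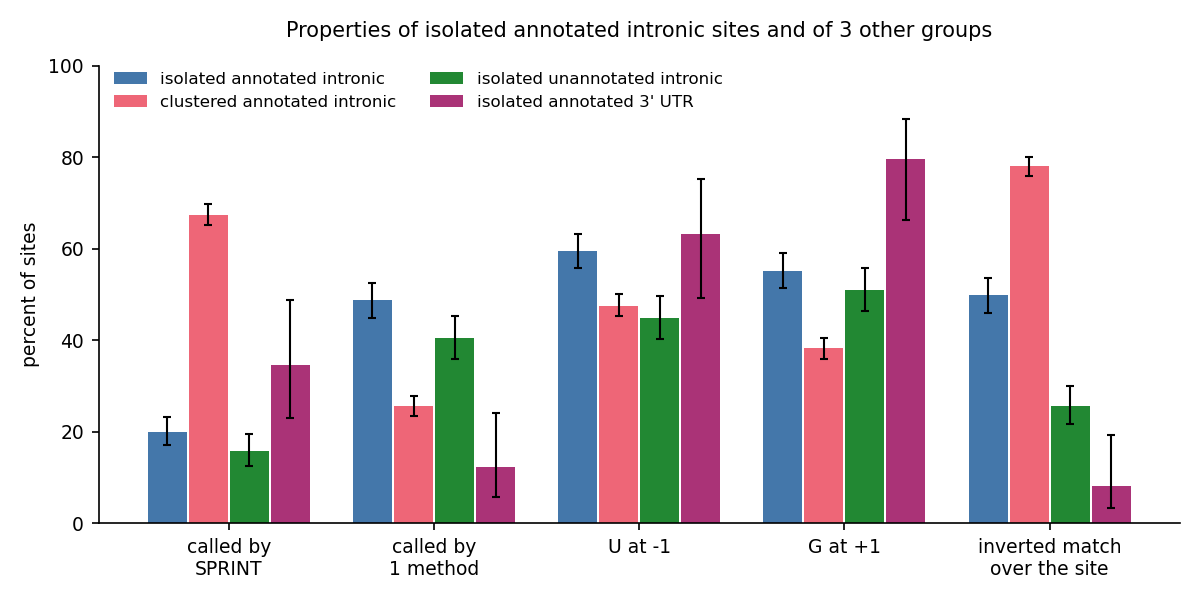
Percent of sites (y axis) called by SPRINT, called by 1 method, with U directly 5′ (position -1) or G directly 3′ (position +1) of the edited adenosine, or with an inverted match over the site, for 4 groups of listed sites; error bars are Wilson 95% intervals. Isolated annotated intronic sites have fewer SPRINT calls (20% against 67.5%) and fewer inverted matches (49.8% against 78.1%) than clustered ones, and more U at -1 (59.6% against 47.6%).

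The 641 members had 548 host genes, of which 474 held 1 member, 58 held 2, 13 held 3 and 3 held 4. SRPK2 (a kinase of SR splicing factors), PREP (prolyl endopeptidase) and PRKCA (protein kinase C alpha) held 4 each, PDE8A and PLA2G12A (a secreted phospholipase) held 3. The members of 1 gene were not alike: SRPK2 had median levels from 0.192 over 4 samples to 0.633 over 8, and PRKCA from 0.263 over 2 to 0.750 over 7. PLA2G12A was the most even of these 5 genes, with 0.133 over 9 samples, 0.0937 over 8 and 0.130 over 7, and its 3 members lie in the same intron. In PREP, 3 members lie in intron 10, and 1 of them had no level in the 96 samples, while the member in intron 2 had the highest median of the 5 genes (0.818 over 7 samples).

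The groups of genes examined held few members each. Of 77 genes of DNA repair and damage response, 7 hosted 7 members, among them ERCC6 (0.240 to 0.843) and RAD17 (0.50 to 0.60 over 6 samples), while FANCA, PALB2 and BRIP1 were found in 1 or 2 samples and XRCC5 in 0. Of 64 chromatin regulators, 7 hosted 8 members, each found in at most 4 samples, such as KDM5B. Zinc finger genes of the ZNF series hosted 14 members (2.18%) and 23 clustered sites (1.47%). Of 24 genes of double-stranded RNA and editing, 1 hosted a member, and ZFR hosted 9 clustered sites. Of 39 erythroid and K562 genes, 4 hosted 3 members, among them TFRC and a region annotated to transcripts of HBE1 and HBG2, and of 20 drug targets ABL1, HDAC8 and RPTOR hosted 5.

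ABL1, the kinase of the BCR-ABL1 fusion, held a pair of members 101 bases apart in intron 1 of 10 that were not found alike. The member at position 130752337 ranged from 0.160 to 0.857 over 32 samples (median 0.375), and the one at 130752438 in 8 with levels of 0.110 to 0.625 (median 0.257). In the time course the first had 0.523 at 36 h and 0.587 at 48 h of imatinib, beside 0.750, 0.50 and 0.260 at 24, 36 and 48 h of DMSO. The imatinib values fell within the range of the DMSO values. In the DMSO arm of the chase the first member had 0.178 at 0 h, 0.444 at 1 h and 0.60 at 2 h. It had no level at 4 h or 6 h of that arm, nor at 6 h of any other arm.

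Over the samples, members were found less often than clustered sites. The mean percent of sites found was 4.46 ± 4.08 for members and 5.96 ± 4.05 for clustered sites (SD, n = 96), a difference of -1.50 ± 2.22 percentage points that was negative in 73 of 96 samples (sign-flip permutation test, two-sided, adjusted p = 3.0e-05 over 6 comparisons). Unadjusted, this p was 2.0e-05, the smallest that 100000 resamples can give. Within experiments the difference was -2.07 in the chase (lower in 13 of 19 samples), -0.768 in the time course (14 of 20), -1.33 in the kinase inhibitor samples (7 of 10), -2.29 in the wash-out samples (9 of 9) and -1.17 in the derivative lines other than AsiSI (12 of 12), and it was 1.11 in the AsiSI line, where members were found more often in 4 of 4 samples. Among sites called by at least 2 methods the difference was -0.630 (adjusted p = 0.106, permutation test), and among sites found in at least 5 samples it was -0.843 (adjusted p = 0.148, permutation test).

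The mean level per sample differed little between members and clustered sites, and by an amount that depended on the summary. It was 0.438 ± 0.0661 for members and 0.421 ± 0.0590 for clustered sites (SD, n = 95, because doxycycline-treated LINE cells had 0 members), a difference of 0.0170 ± 0.0755 that was positive in 64 of 95 samples (adjusted p = 0.0357 by the permutation test). With the median level in place of the mean the difference was 0.0401 (adjusted p = 9.60e-05, permutation test), and without the derivative lines other than AsiSI it was 0.0247 (adjusted p = 1.44e-04, permutation test). It turned to -0.0137 in the same permutation test with 1 value per host gene (adjusted p = 0.0622), to -0.0130 with at least 2 methods (0.148) and to -0.00818 with sites found in at least 5 samples (0.439). Within experiments it was 0.0356 in the chase (higher in 15 of 19 samples), 0.0135 in the time course (14 of 20) and -0.0418 in the derivative lines other than AsiSI (4 of 11). The sign depended on which sites were counted and the size on the summary.

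Isolated intronic sites of the other class were found less often than members, and the sign of the difference in level depended on the setting. The 421 isolated unannotated intronic sites had a mean level of 0.429 ± 0.0931, a difference of 0.00911 ± 0.115 (SD, n = 95, adjusted p = 0.439, permutation test). With medians the difference was 0.0489 (adjusted p = 9.12e-04), and among sites found in at least 5 samples it was -0.0355 (adjusted p = 0.0347, permutation tests), so that both directions were called. Members were found more often by 0.938 ± 1.81 percentage points, in 63 of 96 samples (adjusted p = 3.0e-05, permutation test). Within experiments the difference in percent found was 2.49 in the kinase inhibitor samples (higher in 10 of 10) and 2.18 in the time course (18 of 20), against -0.452 in the wash-out samples (lower in 8 of 9) and -0.303 in the derivative lines other than AsiSI (lower in 7 of 12). The difference in percent found was 0.150 among sites found in at least 5 samples (adjusted p = 0.770, permutation test).

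Members and isolated annotated 3′ UTR sites differed in every sample in which both had a level. The mean level was 0.438 for members and 0.115 ± 0.0622 for the 49 sites in 3′ UTRs, and the difference of 0.323 ± 0.0918 was positive in 95 of 95 samples (adjusted p = 3.0e-05, permutation test). The percent of sites found was 4.46 against 15.7 ± 8.31, lower for members in 96 of 96 samples (adjusted p = 3.0e-05, permutation test). Intronic RNA is scarcer than mRNA, and the part of read depth in these differences was not tested.

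Members became far more numerous along the time course. At 6 and 12 h the 8 samples had 7 to 17 members each, and at 36 and 48 h the 8 samples had 48 to 121. All listed sites found went from 102 to 184 per sample to 299 to 633, so members were set against them. More cells with the edited transcript and more intronic RNA per cell cannot be told apart in bulk samples. The member share was 4.05% to 11.8% at 6 and 12 h and 16.1% to 22.5% at 36 and 48 h. The groups did not overlap. The means were 7.97% ± 2.95 and 19.3% ± 2.09 (SD, n = 8 and 8), a difference of 11.3 percentage points (exact permutation test over samples, two-sided, p = 1.55e-04, the smallest that this design allows, adjusted p = 0.00124 over 8 comparisons). A site was listed only if it was found in at least 2 of 130 samples. Of the 621 members with a level in the samples used, 96 had it only at 24 to 48 h. Such members could not add to the early share, and the test does not allow for this. The same limit applies to the shares by treatment and among annotated intronic sites below. The share of isolated unannotated intronic sites was also higher late, with 2.47% to 6.86% at 6 and 12 h and 6.11% to 15.6% at 36 and 48 h (4 to 7 sites and 24 to 84 sites per sample), and whether the change differed between both groups was not tested.

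The same held in each treatment, DMSO included. With DMSO the share was 4.05% at 6 h, 6.49% at 12 h, 15.7% at 24 h, 18.9% at 36 h and 17.7% at 48 h. With imatinib it was 4.37% at 6 h and 19.6% at 48 h. Set against annotated intronic sites alone, the member share was 17.5% ± 5.73 early and 31.6% ± 5.42 late (adjusted p = 0.00124, exact permutation test). The mean member level, in contrast, was 0.423 ± 0.0513 early and 0.409 ± 0.0282 late, a difference of -0.0140 (adjusted p = 0.943, exact permutation test).

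The late samples supplied a large part of the members. Of the 621 with a level, 351 (56.5%) had one at 24 to 48 h of the time course and 96 (15.5%) had a level nowhere else, against 54.8% and 9.27% of clustered sites. For isolated unannotated intronic sites these shares were 49.3% and 16.4%, so the late-only share was not particular to members. Any 2 of the 8 samples at 36 and 48 h shared 15 to 53 members, a median of 37.5% of the members of 1 sample of the pair, against 0 to 4 members and 12.5% among the samples at 6 and 12 h. For clustered sites these medians were 39.0% and 26.1%. For DMSO, 43 members were found at both 36 and 48 h, and the median difference in their levels was 0. At 48 h minus 36 h it was 0.0411 over 46 members for imatinib, 0.0565 over 41 for etoposide and 0.0827 over 16 for romidepsin.

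Single members rarely passed the site test in the time course. A two-sided Fisher test of the number of samples with a level, adjusted over all 426 listed sites found in at least 4 of the 16 samples, called 17 sites (3.99%) as found more often at 36 and 48 h and 1 site (0.235%) as found less often. Of 77 members tested, 1 was called more often and 0 less often, a share of members no higher than the background, although 74 of the 77 were found in more late than early samples, and 33 had an unadjusted Fisher p under 0.05 in that direction and 0 in the other. Over all 426 listed sites, these counts were 121 and 4. With tests limited to sites found in at least 6 samples, 16 of 26 members were called as found more often, beside 62 of 198 listed sites (31.3%), members included, and 0 members and 1 listed site (0.505%) as found less often. With a minimum of 3 samples 0 of 110 members and 0 of 650 listed sites were called in the same direction by Fisher's exact test, with 33 and 121 at an unadjusted p under 0.05.

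The called member lies in PSMA2, a proteasome subunit gene that an overlapping gene (ENSG00000256646) shares, at chromosome 7, position 42925556. It was found in 0 of 8 early samples and in 7 of 8 late ones, at 0.60 and 0.857 with DMSO, 0.750 with imatinib at 36 h and 0.464, 0.875, 0.667 and 0.50 in the others (adjusted p = 0.0331, Fisher's exact test). HSP90AA1 (a heat shock chaperone) and RDH13 were found in 2 of 8 early and 8 of 8 late samples, with medians of 0.151 and 0.158 early and 0.554 and 0.446 late, and were not called (adjusted p = 0.0552 each, Fisher's exact test). AGO3 (an Argonaute protein) and ZZZ3 were found in 0 of 8 early and 6 of 8 late samples and had the same adjusted p.

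**Figure D3:**
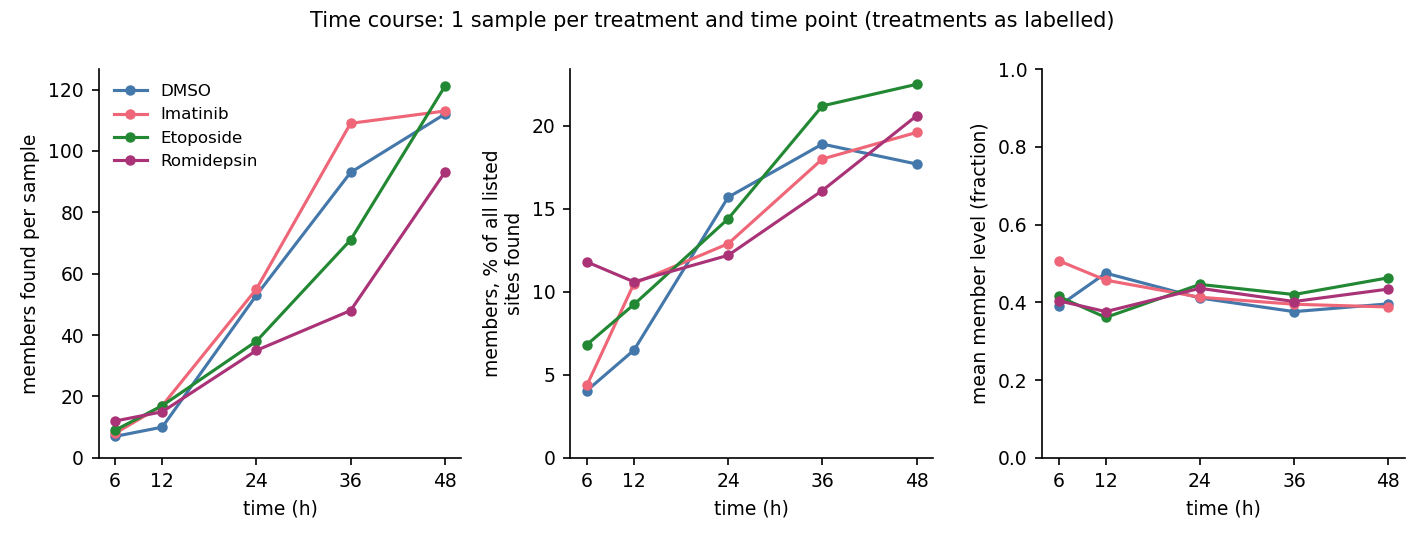
Members found per sample, members as a percent of all listed sites found, and mean member level (fraction) against time in h for imatinib, etoposide, romidepsin and DMSO, 1 sample per point. The number found and the share are higher at 48 h than at 6 h in all 4 treatments, and the mean level stays between 0.361 and 0.507.

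No difference between treatments in the time course passed the threshold. These tests did not pair samples by time, so the SDs include the spread over time. Imatinib minus DMSO was 0.478 percentage points in member share (13.1% ± 6.09 and 12.6% ± 6.82, SD, n = 5 and 5, adjusted p = 0.952, exact permutation test) and 0.0225 in mean level (adjusted p = 0.943, exact permutation test). Etoposide and romidepsin, pooled because their names conflict between sources, minus the same DMSO samples were 1.97 points (adjusted p = 0.873) and 0.00606 in level (adjusted p = 0.943, exact permutation tests).

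In the actinomycin D chase more members and fewer clustered sites were found at 6 h than at 0 h in each of the 5 first treatments. Members numbered 25 at 0 h and 27 at 6 h with DMSO, 18 and 20 with talazoparib, 33 and 53 with SN-38, 24 and 33 with etoposide and 20 and 25 with cyclophosphamide, and the ranges of both times overlapped. Clustered sites numbered 100 to 165 at 0 h and 38 to 106 at 6 h. Isolated unannotated intronic sites were also more at 6 h in 5 of 5, from 7 to 15 at 0 h to 18 to 41 at 6 h, and their share of all listed sites found went from 2.70% to 5.45% up to 6.90% to 10.7%. These differences in number were not tested. The member share of all listed sites found was 8.26% ± 1.07 at 0 h (n = 5) and 10.8% ± 2.05 at 1 to 6 h (n = 14), a difference of 2.49 points (SD, adjusted p = 0.0757, exact permutation test). With the first treatment as a block the adjusted p was 0.0474. Leaving out 1 sample at a time gave adjusted p from 0.0103 to 0.230 (exact permutation tests), and it passed the threshold in 1 of 19 cases, without the sample of cyclophosphamide and 2 h of actinomycin D, the lowest of the chase at 6.49%. Within annotated intronic sites the member share was 16.2% ± 1.33 at 0 h and 26.4% ± 7.81 later, a difference of 10.2 points (adjusted p = 0.0110, exact permutation test). The listing limit given for the time course applies to the chase too. A member listed only through the 14 later samples could not be found at 0 h, and such members were not counted. The chase tests of share, level and single sites do not allow for this.

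Each first treatment had a higher member share at 6 h than at 0 h. With DMSO it was 8.80% at 0 h, 9.14% at 1 h, 9.84% at 2 h, 12.2% at 4 h and 13.4% at 6 h. Talazoparib (a PARP inhibitor) went from 7.0% to 9.52%, SN-38 (a topoisomerase I poison) from 9.79% to 13.9%, etoposide from 7.97% to 12.6% and cyclophosphamide (an alkylating prodrug) from 7.72% to 12.4%.

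The mean member level was higher in the chase after actinomycin D. It was 0.362 to 0.465 at 0 h (mean 0.413 ± 0.0402, n = 5) and 0.408 to 0.542 at 1 to 6 h (mean 0.499 ± 0.0360, n = 14), and the difference was 0.0857 (adjusted p = 0.0138, exact permutation test). It did not pass the threshold of the exact permutation test with the first treatment as a block (adjusted p = 0.0948), with a spacing of 200 bases (0.0688), with the median level (0.128) or without the sample of etoposide at 0 h (0.0523). Clustered sites had 0.320 to 0.352 at 0 h and 0.431 to 0.532 later. Listing also required a highest level above a minimum, which a member could reach in the later samples alone. The test of the level does not allow for this.

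Members found at 0 h and at 6 h were mostly not the same. A sample at 0 h and one at 6 h shared 1 to 5 members, a median of 9.09% of the members of 1 sample of the pair, over 25 pairs. Samples at 6 h shared 6 to 13 among themselves (median 30.3%, 10 pairs) and samples at 0 h 1 to 7 (median 13.8%, 10 pairs). Clustered sites also had a low median between 0 h and 6 h, 7.55%. Their medians were 22.3% among samples at 6 h and 30.8% among samples at 0 h. Within a first treatment, 14 pairs of levels at 0 h and 6 h came from the same member, and the level was higher at 6 h in 12, lower in 1 and equal in 1.

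**Figure D4:**
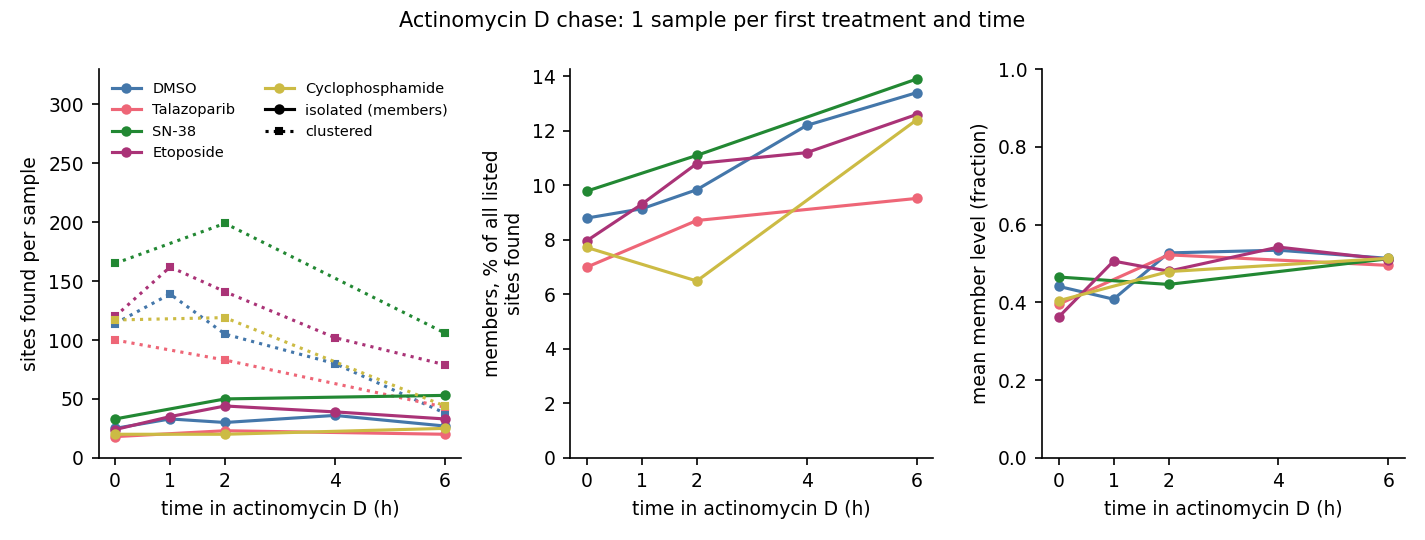
Sites found per sample (circles and solid lines, members; squares and dotted lines, clustered sites), members as a percent of all listed sites found, and mean member level (fraction) against time in actinomycin D in h, 1 sample per point. At 6 h the clustered sites have dropped to between 38 and 106, and the members stay between 20 and 53.

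Of 445 listed sites found in at least 4 of the 19 chase samples, the site test called 2 (0.449%) as found more often after actinomycin D and 17 (3.82%) as found less often. Of 42 members tested, 1 was called in each direction, and 37 were found in a larger share of the later samples. This direction was not counted over all listed sites, and the samples at 0 h were fewer than the later ones. The 37 members therefore have no background to be set against. At an unadjusted Fisher p under 0.05, 5 members were found more often and 1 less often. Over all 445 listed sites, these counts were 32 and 38. Among 161 clustered sites tested, 1 was called more often and 12 less often. With a minimum of 3 samples, 1 of 61 members was called in each direction, beside 0.292% of 686 listed sites as found more often and 2.33% as found less often. With a minimum of 6 samples, 1 of 18 members was called as found more often and 0 as found less often, beside 0.820% and 2.05% of 244 listed sites (Fisher's exact test, with 5 and 0 of the 18 at an unadjusted p under 0.05).

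ADAT2, the catalytic subunit of a tRNA adenosine deaminase, held the member called more often, in intron 1 of 5 at chromosome 6, position 143450034. It was found in 0 of 5 samples at 0 h and in 14 of 14 later (adjusted p = 0.00765, Fisher's exact test). Its level was 0.268 and 0.190 at 1 h, 0.173, 0.491, 0.477, 0.494 and 0.649 at 2 h, 0.614 and 0.556 at 4 h, and 0.686, 0.856, 0.732, 0.794 and 0.727 at 6 h. All 5 levels at 6 h were above all 9 at earlier times. In samples outside the chase it had 0.462 after 2 h and 0.70 after 6 h of actinomycin D alone, 0.260 after 6 h of DMSO and 0.219 in untreated cells. It was also found in 3 time course samples (0.50, 0.714 and 0.50 at 36 or 48 h), in 7 of 10 kinase inhibitor samples, at a median of 0.210, with no actinomycin D, and in 0 of 11 alpha-amanitin samples.

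ARL6IP6, which encodes an ARL6-interacting membrane protein, held the member called less often, in intron 3 of 3 at chromosome 2, position 152745362. It was found in 4 of 5 samples at 0 h, at 0.452, 0.231, 0.176 and 0.231, and in 0 of 14 later (adjusted p = 0.0319, Fisher's exact test). It was found in 0 of 20 time course samples and in 5 of 10 kinase inhibitor samples (median 0.449). CALU was found in 0 of 5 samples at 0 h and in 8 of 14 later, at a median of 0.632, and was not called (adjusted p = 0.283, Fisher's exact test).

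**Figure D5:**
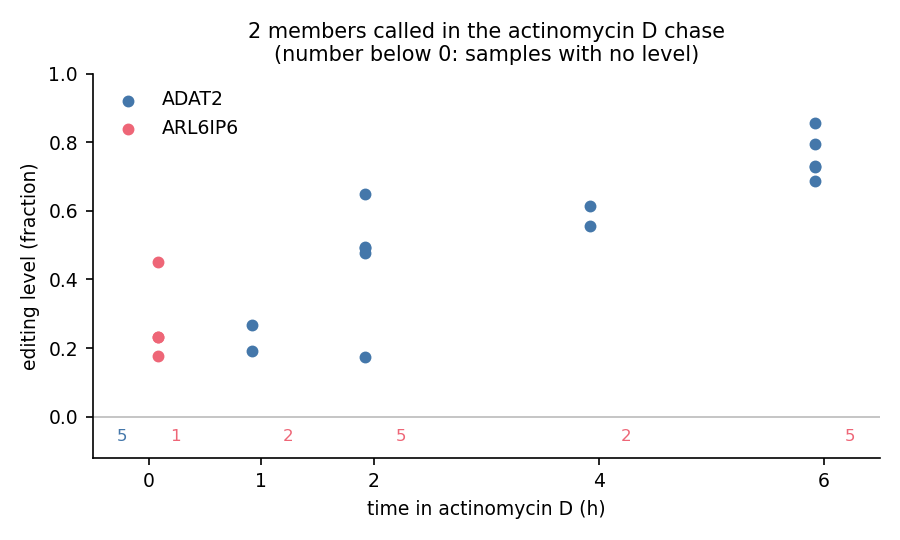
Editing level (fraction, y axis) of the members in ADAT2 and ARL6IP6 against time in actinomycin D (h, x axis), 1 point per sample with a level; the numbers under the zero line count the samples without one. ADAT2 is absent at 0 h and reaches 0.686 to 0.856 at 6 h, and ARL6IP6 is present at 0 h only.

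Alpha-amanitin did not give a detectable change in members. The share was 9.63% ± 1.21 with it (n = 8) and 10.4% ± 2.02 without (n = 3), a difference of -0.757 points (adjusted p = 0.873, exact permutation test), and the mean level was 0.449 ± 0.0360 and 0.40 ± 0.0507 (adjusted p = 0.533, exact permutation test). The smallest p this design allows is 0.0121.

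Kinase inhibitors before the second drug gave a member share of 14.9% ± 2.02 against 12.9% ± 1.33 after DMSO (SD, n = 4 and 4, adjusted p = 0.610, exact permutation test). Samples with the inhibitors had 39 to 75 members. Within annotated intronic sites the member share was 25% to 34.3% with the inhibitors (mean 29.7% ± 3.78) and 20.5% to 24.9% after DMSO (mean 21.8% ± 2.08), and the groups did not overlap. The difference was 7.86 points (p = 0.0286, the smallest of this design, adjusted p = 0.0762, exact permutation test). The mean level was 0.427 ± 0.0228 against 0.429 ± 0.0259 (adjusted p = 0.943, exact permutation test), with the same smallest p. The tests in this paragraph did not pair samples by second drug.

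Few members were found in the wash-out samples, 3 to 25 each. The share was 6.16% ± 2.19 after SN-38 or etoposide (n = 6) and 5.98% ± 0.673 after DMSO (n = 3), and the level was 0.417 ± 0.0760 and 0.392 ± 0.0532 (adjusted p = 0.952 and 0.943, exact permutation tests, smallest p 0.0238).

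The derivative lines other than AsiSI held the fewest members. The 12 samples of the Cas9, LINE, CSB, LIG3 and MRE11A lines had 0 to 7 members and a share of 0 to 10.0%, and the 4 of the AsiSI line had 9 to 28 members and a share of 14% to 27.7%. Doxycycline minus water was -1.09 points in share (7.40% ± 5.18 and 8.50% ± 9.14, SD, n = 8 and 8) and -0.0101 in level (n = 7 and 8, the sample with 0 members left out), with adjusted p = 0.952 and 0.943 by exact permutation tests. At 0 to 7 members a sample, the mean level of such a line rests on very few sites.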

How the data were processed

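RNA-seq reads of K562 cells and derivative lines were trimmed by the authors, aligned to GRCh38 and freed of duplicates, and sites were called in each sample with REDItools, RED-ML and SPRINT. The authors removed known variants, annotated repeats and regions of low mappability, and kept sites found in at least 2 of 130 samples with a highest level above a minimum. The submitters' processing notes name TopHat2 2.1.1, Picard 2.0.1 and SAMtools 1.9. The deposited list gives each level as a fraction from 0 to 1, averaged over the detecting tools, with no depth per site, so no counting interval can be given for a level. Zeros were taken as the absence of a level. The untreated column was assigned by group, since its name carries no replicate number and the label gives replicate 3. The 34 columns of other samples were not used in any step. Members, gene lists and tests were chosen with earlier results of these data known.

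Host genes came from GENCODE release 44 (the authors used 41) and bases from the GRCh38 reference. Inverted matches were local alignments of 101 bases around the site to 2000 bases on either side (Biopython 1.88), without G-U pairs, and pairing came from RNAfold (ViennaRNA 2.7.2). Isolated unannotated sites known from Sanger sequencing only were left out. Groups of sites were compared over samples by sign-flip tests with 100000 resamples, conditions by exact permutation tests that double the smaller tail, and single sites by Fisher's exact test (scipy 1.17.1, numpy 2.4.6). P-values were adjusted by the Benjamini-Hochberg method over 6 paired comparisons, 8 condition comparisons per measure or all listed sites tested, with a threshold of 0.05. The tests were tried on simulated data. Experiments are the sets of samples that belong together by treatment and by the study's sample sheet.

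The sites named are the 12 members found in the most samples, the 5 highest and the 5 lowest median levels among members found in at least 10 samples, the 3 largest and 3 smallest distances, members called in a site test, the 5 host genes with the most members and members in 6 gene lists. HSP90AA1 and AGO3 and the singling out of ZZZ3, RDH13 and CALU in the site tests were chosen after their values had been seen. Alternatives were other spacings, at least 2 methods, at least 5 samples, medians, 1 value per host gene, blocks of samples that share a first treatment, drug, line or time, and leaving out single samples or experiments. Another denominator and a minimum of 5 samples for the member share were added after the data had been seen. Some members and 1 sequence are not reported here.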

Additional observations from a re-analysis of the deposited data

Results flagged for a closer look

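The following 3 samples stood apart from the rest of their group by Dixon's test, which flags about 1 in 20 groups by chance. DMSO followed by etoposide had a member share of 14.9% against 12.2% to 12.4% in the other 3 DMSO-pretreated samples. Etoposide directly after wash-out had a mean member level of 0.568 over 4 members, against 0.366 to 0.416 in the other 5 treated wash-out samples. MRE11A cells with water for 8 days had a mean level of 0.143, against 0.410 to 0.536 in the other 7 water samples, and this value rests on 1 member.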

How the results depend on the processing

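The mean level of members minus that of clustered sites (0.0170) turned to -0.0137 with 1 value per host gene, -0.0130 with at least 2 methods and -0.00818 with at least 5 samples. It was 0.0106 with a spacing of 200 bases, 0.0123 without the actinomycin D chase, 0.0163 without alpha-amanitin, 0.0167 without the kinase inhibitor samples, 0.0129 without rapamycin and Torin1, 0.0161 without romidepsin alone and 0.0179 without the time course, with adjusted p above 0.05 each time (permutation tests). The percent found minus that of clustered sites was -0.630 with at least 2 methods and -0.843 with at least 5 samples. The level minus that of unannotated sites was 0.0489 and called with medians, and -0.00247 with 200 bases, -0.00222 with at least 2 methods, -0.0355 with at least 5 samples (adjusted p = 0.0347, permutation test) and -0.00337 without the derivative lines other than AsiSI, and the percent found was 0.150 higher with at least 5 samples. For the member share, the chase difference was called with the first treatment as a replicate block (2.49), with at least 5 samples (3.26) and among annotated intronic sites (10.2), the latter pair added after the data had been seen. The block ended the call of the chase level (0.0857) and changed no other call, and 200 bases (0.0728) and medians (0.0892) ended it too. Uncalled differences changed sign with 200 bases for alpha-amanitin (share 0.292), imatinib (share -3.07e-04), time (level 0.00453) and wash-out (level -0.0156), and among annotated intronic sites for alpha-amanitin (0.0689) and wash-out (-0.306). The site tests called 0 members in the time course with a minimum of 3 samples and 16 with a minimum of 6, and 1 member in the chase with a minimum of 6. Leaving out 1 sample at a time gave share differences of 2.18 to 2.88 for the chase, -1.43 to 0.406 for alpha-amanitin, 10.8 to 11.9 for time, -1.65 to 2.65 for imatinib, -0.165 to 3.55 for etoposide or romidepsin, 1.32 to 2.89 for kinase inhibitors, -0.487 to 0.625 for wash-out and -2.25 to 1.65 for doxycycline. The level differences were 0.0727 to 0.0985, 0.0196 to 0.0655, -0.0229 to -0.00197, 0.00372 to 0.0388, -0.00224 to 0.0223, -0.0117 to 0.00761, -0.00553 to 0.0418 and -0.0524 to 0.0137, in the same order. The cause of these changes was not tested, except that fewer sites enter with a minimum of samples or methods. A spacing of 50, 200 or 1000 bases gave 755, 602 or 522 members. Read depth is not known, so coverage and editing cannot be told apart in the number of members found.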
